A study of Canis lupus familiaris with 15 samples.

Results

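The levels of 4 genes are described in the corpus luteum (CL) of each of 15 dogs. NFIL3 (ENSCAFG00000002169), CSRNP3 (ENSCAFG00000032100) and ELL2 (ENSCAFG00000007900) regulate transcription, and FZD5 (ENSCAFG00000013547) is a receptor for WNT proteins. They are 4 of the 23630 genes in the count table and were picked by identifier, with earlier results of these data known, because their mRNA was higher in antigestagen-treated dogs than both at mid-gestation and at prepartum luteolysis. The values of those 2 contrasts therefore chose the genes and are given below as a description, and nothing is read from the calls made there. All 4 passed the filter on low counts, as did 14922 genes in all.

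The CL of 15 clinically healthy cross-breed bitches aged 2 to 8 years were sequenced, with 1 library per dog. The 5 mid-gestation dogs were pregnant, on days 35 to 40 after ovulation, and untreated. The 5 antigestagen dogs were pregnant, on days 40 to 45 after ovulation, and received the antigestagen aglepristone at 10 mg/kg in 2 applications 24 h apart, with the CL removed 24 h after the second. The 3 luteolysis dogs were pregnant and untreated, and were operated on when progesterone (P4), sampled every 6 h from day 58, had stayed under 2 to 3 ng/ml in 3 consecutive measurements. The 2 luteal regression dogs were not pregnant and were sampled on day 65 after ovulation. Treatment and gestational day both set the antigestagen dogs apart from the mid-gestation dogs, so that these cannot be told apart. Dogs are numbered within their group in the order of their records.

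The CL secretes P4, which maintains canine pregnancy, and aglepristone blocks the P4 receptor, so that abortion follows. NFIL3 is a basic leucine zipper repressor that binds the same DNA elements as the activators DBP, TEF and HLF and so takes part in the circadian clock, and it is also needed for natural killer cells. CSRNP3 belongs to a small family of cysteine- and serine-rich nuclear proteins that can activate transcription. ELL2 is part of the super elongation complex, which keeps RNA polymerase II moving, and is known for its role in antibody-secreting plasma cells. FZD5 is 1 of the Frizzled receptors, which bind WNT ligands together with the co-receptors LRP5 and LRP6 and pass the signal to Dishevelled and beta-catenin.

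Library totals ran from 8558743 to 26284315 counts with a median of 18313707. Levels are given as CPM, read counts scaled to the TMM-adjusted size of each library, and differences as log2 ratios. Of 12 markers of steroidogenic luteal cells, PRLR and CYP17A1 could be paired with an identifier, and both had reads in each dog. Their levels were ordered differently over the groups. CYP17A1 was 27.1 to 205 CPM after antigestagen, 268 to 809 at mid-gestation, 111 to 334 at luteolysis and 590 to 857 in luteal regression. PRLR was 121 to 175 CPM after antigestagen, 67.3 to 145 at mid-gestation, 74.8 to 95.2 at luteolysis and 65.8 to 104 in luteal regression. In whole tissue, fewer cells of a type and less RNA per cell cannot be told apart.

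NFIL3 was the most strongly counted of the 4 genes, with 335 to 6374 reads per dog. At mid-gestation its level was 34.9, 96.4, 96.4, 111 and 141 CPM in dogs 1 to 5. After antigestagen it was 107, 224, 278, 261 and 451 CPM. Dogs 2 to 5 of the antigestagen group lay above each mid-gestation dog, whereas antigestagen dog 1 lay among them. At luteolysis the level was 41.6, 69.3 and 73.8 CPM in dogs 1 to 3, and in luteal regression it was 62.0 and 17.2 CPM. Each of these 5 dogs was below each antigestagen dog.

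The group means of NFIL3 fell in the order antigestagen (264 ± 124 CPM, SD, n = 5), mid-gestation (95.8 ± 38.5, n = 5), luteolysis (61.6 ± 17.5, n = 3) and luteal regression (39.6 ± 31.7, n = 2). Each pair of neighbours in that order overlapped. The log2 ratio of antigestagen over mid-gestation was 1.46 (SE 0.42, 95% interval 0.58 to 2.35), a 2.76-fold difference. Over luteolysis it was 2.10 (SE 0.52), a 4.29-fold difference.

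CSRNP3 was measured at low levels, with 86 to 436 reads per dog. The mid-gestation dogs had 4.51, 4.93, 6.18, 7.26 and 7.15 CPM. The antigestagen dogs had 14.1, 22.4, 17.4, 6.92 and 13.4 CPM. Antigestagen dog 4 lay within the range of the mid-gestation dogs, and the remaining 4 were well above it. The luteolysis dogs had 6.91, 4.11 and 8.52 CPM, and the luteal regression dogs 7.43 and 5.44 CPM.

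Outside the antigestagen group CSRNP3 was close to level. Its mean was 14.9 ± 5.67 CPM (SD, n = 5) after antigestagen, 6.51 ± 2.23 (n = 3) at luteolysis, 6.44 ± 1.41 (n = 2) in luteal regression and 6.01 ± 1.25 (n = 5) at mid-gestation, and these last 3 groups overlapped. The log2 ratio of antigestagen was 1.31 over mid-gestation (SE 0.29, 95% interval 0.68 to 1.93) and 1.19 over luteolysis (SE 0.35). Without antigestagen dog 4 these became 1.5 and 1.39.

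ELL2 was counted with 202 to 1217 reads per dog. Mid-gestation dogs 1 to 5 had 10.6, 12.2, 16.7, 19.7 and 38.5 CPM. The antigestagen dogs had 32.9, 62.4, 42.5, 48.7 and 53.7 CPM. The groups met only through mid-gestation dog 5, which was above antigestagen dog 1. At luteolysis the level was 15.6, 21.5 and 24.8 CPM, below each antigestagen dog. In luteal regression it was 38.7 and 11.9 CPM, so that 1 dog reached the antigestagen range and the other was near the lowest dogs of the series.

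ELL2 averaged 48.0 ± 11.2 CPM (SD, n = 5) after antigestagen, 25.3 ± 19.0 (n = 2) in luteal regression, 20.7 ± 4.66 (n = 3) at luteolysis and 19.5 ± 11.2 (n = 5) at mid-gestation, and each pair of neighbours in that order overlapped. The log2 ratio of antigestagen was 1.30 over mid-gestation (SE 0.36, 95% interval 0.53 to 2.06) and 1.22 over luteolysis (SE 0.43). Without mid-gestation dog 5 the first rose to 1.70.

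FZD5 was counted with 18 to 526 reads per dog. Mid-gestation dogs 1 to 5 had 1.63, 0.925, 1.83, 1.41 and 6.69 CPM. The antigestagen dogs had 8.23, 27, 19.7, 13.1 and 13.1 CPM, each above each mid-gestation dog. The luteolysis dogs had 5.63, 4.11 and 5.74 CPM, and the luteal regression dogs 5.87 and 3.69 CPM. Of the mid-gestation dogs, 4 lay below each dog of the other groups, and mid-gestation dog 5 was above each luteolysis and luteal regression dog.

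The value of mid-gestation dog 5 rested on 186 FZD5 reads, against 18 to 31 in the other mid-gestation dogs, with exact 95% Poisson intervals of 5.76 to 7.72 CPM for dog 5 and 1.23 to 2.63 CPM for dog 3, the next highest. Such intervals cover counting error only. The FZD5 mean was 16.2 ± 7.26 CPM (SD, n = 5) after antigestagen, 5.16 ± 0.910 (n = 3) at luteolysis, 4.78 ± 1.54 (n = 2) in luteal regression and 2.5 ± 2.37 (n = 5) at mid-gestation. Only the first of these steps separated neighbouring groups without overlap. The log2 ratio of antigestagen was 2.68 over mid-gestation (SE 0.48, 95% interval 1.65 to 3.71), a 6.41-fold difference, and 1.66 over luteolysis (SE 0.56), a 3.16-fold difference.

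**Figure D1:**
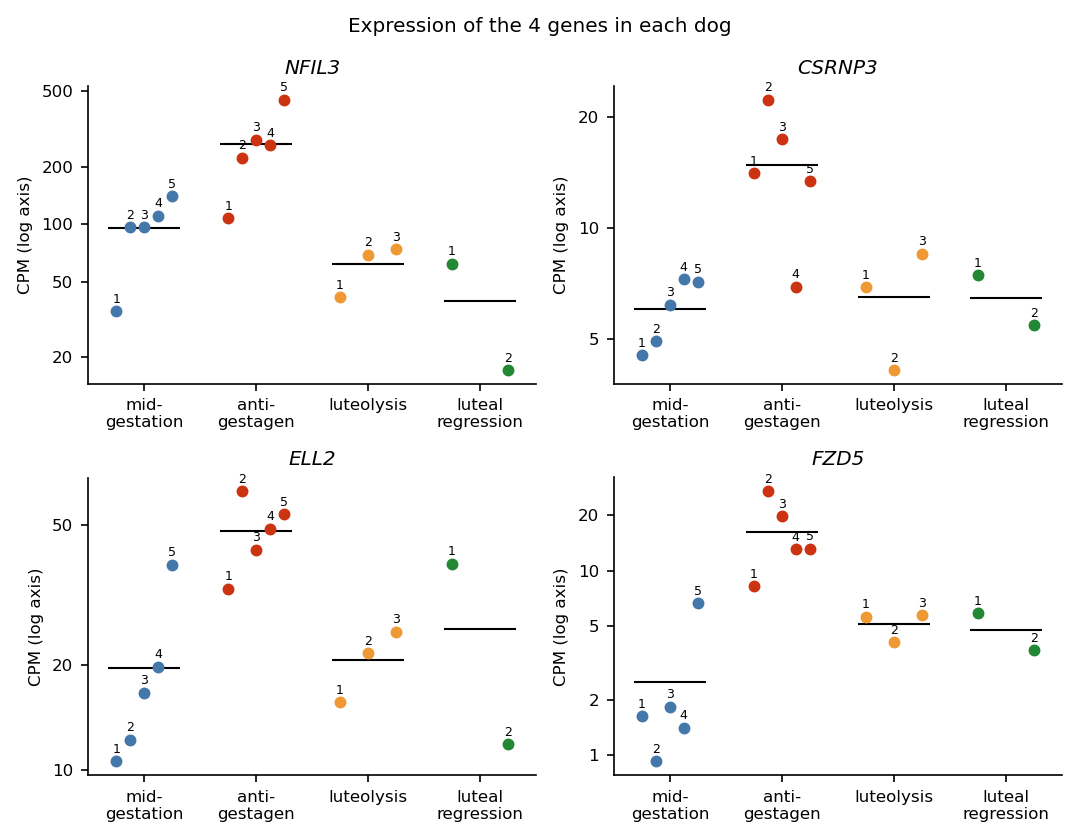
CPM of NFIL3, CSRNP3, ELL2 and FZD5 in each dog on a log axis. Points are dogs, with their number in the group beside them, and lines are group means. FZD5 is the one gene of the 4 in which each antigestagen dog, at 8.23 CPM or more, lies above each of the 10 other dogs, at 6.69 CPM or less.

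Since the genes were chosen as higher after antigestagen, the counts of dogs that follow are a description. All 5 antigestagen dogs exceeded all 10 other dogs in FZD5, and 4 of 5 did so in NFIL3, CSRNP3 and ELL2. The dog that did not was dog 1 for NFIL3 and ELL2 and dog 4 for CSRNP3. Of all genes in the fit, 7 (0.0469%) had each antigestagen dog above the 10 others, 88 (0.59%) had at least 4 of the 5 above them, and 20.7% had their highest group mean after antigestagen. Besides FZD5 these 7 were ERCC2, TMEM65, VGLL4 and 3 genes without a name.

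The thresholds of the study (0.01 for the p-value and 0.1 after adjustment) were applied here to edgeR's quasi-likelihood F-test over all genes, while the study used DESeq2's Wald test. By edgeR none of the 4 genes was called in antigestagen over mid-gestation, where 0% of 14399 genes were. Before adjustment 980 genes there were below a p-value of 0.05, and DESeq2's Wald test called 85 genes (0.59%), among them all 4. By edgeR FZD5 was called there without antigestagen dog 1 (0.0554% of genes called) or without mid-gestation dog 5 (0.0417%). In antigestagen over luteolysis 4.75% of genes were called in either direction and 1.62% as higher after antigestagen, among them NFIL3 and CSRNP3, while ELL2 and FZD5 were not. DESeq2 called all 4 there, with 10.2% of genes called. With 1 dog left out edgeR called 0 to 2 of them. Over all genes it then called from 6 of 14507 (without luteolysis dog 3) to 2169 of 14620 (without luteolysis dog 1). Since these contrasts chose the genes and share the antigestagen dogs, nothing is read from these counts. The groups did not overlap for FZD5 in antigestagen over mid-gestation, where 0.667% of genes had each antigestagen dog on top, nor for NFIL3, ELL2 and FZD5 over luteolysis, where 3.53% did.

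**Figure D2:**
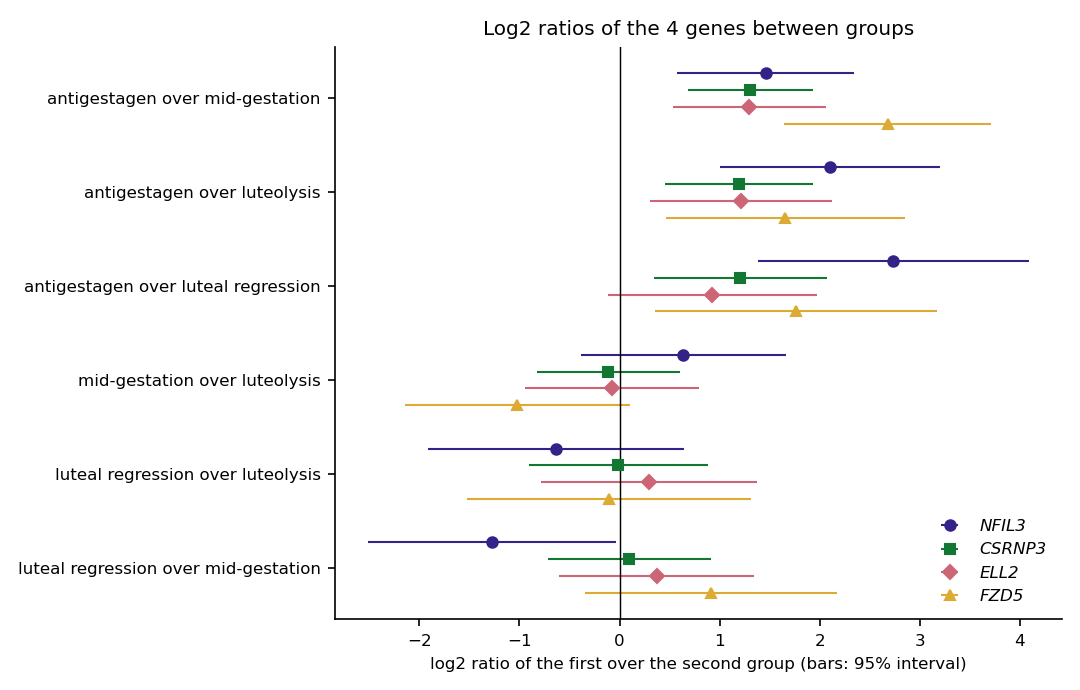
Log2 ratios of the 4 genes in 6 contrasts between groups, with 95% intervals from the edgeR fit. The 3 contrasts with antigestagen lie to the right of 0, from 0.93 to 2.74, with 1 interval that includes 0 (ELL2 over luteal regression). The genes were chosen as higher in antigestagen over mid-gestation and over luteolysis. Intervals in the 3 contrasts with antigestagen are a description, not a test, and are not to be weighed against the other contrasts. In the other 3 contrasts, 11 of 12 intervals include 0, and the one that does not belongs to NFIL3 in luteal regression over mid-gestation.

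The 4 genes were also compared between undisturbed mid-gestation and natural luteolysis. Both groups had entered the choice of the genes, each as lower than antigestagen, although not against each other, so that the p-values of this contrast are not wholly independent of the choice. None was called, while 8.16% of the 14669 genes tested were. DESeq2 called none of the 4 either, and 1743 of the 14669 genes. The log2 ratio of mid-gestation over luteolysis was 0.64 for NFIL3 (SE 0.48, 95% interval -0.39 to 1.66, adjusted p = 0.495). For CSRNP3 it was -0.11 (SE 0.34, interval -0.82 to 0.60, adjusted p = 0.893). For ELL2 it was -0.08 (SE 0.41, interval -0.95 to 0.79, adjusted p = 0.941). These intervals leave room for differences of up to about the size seen after antigestagen for NFIL3, and for smaller ones in CSRNP3 and ELL2. None of the 4 genes had groups without overlap, as 9.76% of genes did.

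FZD5 turned on 1 dog in this contrast. With all dogs its log2 ratio of mid-gestation over luteolysis was -1.02 (SE 0.53, interval -2.14 to 0.10, adjusted p = 0.292 by edgeR), and it was not called. Without mid-gestation dog 5 it was -1.83 (SE 0.38, adjusted p = 0.0273 by edgeR), with 6.95% of genes called, and the same limit from the choice of the genes holds for this value. The remaining 4 mid-gestation dogs, at 0.925 to 1.83 CPM, were all below the 3 luteolysis dogs, at 4.11 to 5.74 CPM. Leaving that dog out was a step of the planned round in which each dog was left out. With DESeq2, chosen after seeing the data, the value without it was -1.82 (adjusted p = 0.000561 by the Wald test). DESeq2 then called 1754 of 14641 genes.

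The luteal regression dogs took no part in the choice of the genes, but the groups they are set against did, and with 2 dogs their contrasts are given as values only. Luteal regression over luteolysis gave log2 ratios of -0.64 (SE 0.60) for NFIL3, -0.01 (SE 0.42) for CSRNP3, 0.29 (SE 0.51) for ELL2 and -0.11 (SE 0.67) for FZD5. Over mid-gestation they were -1.27 (SE 0.58), 0.10 (SE 0.38), 0.37 (SE 0.46) and 0.92 (SE 0.59). Antigestagen over luteal regression gave 2.74 (SE 0.64), 1.21 (SE 0.41), 0.93 (SE 0.49) and 1.76 (SE 0.66). Each antigestagen dog was above both luteal regression dogs for NFIL3 and FZD5, as for 15.4% of all genes. With all dogs edgeR called none of the 14578 genes tested in antigestagen over luteal regression. DESeq2 called 928 of them, among them NFIL3, CSRNP3 and FZD5. Without antigestagen dog 1, the lowest of its group in NFIL3, edgeR called NFIL3, with 0.622% of genes called. The genes were chosen as high in these antigestagen dogs, so that nothing is read from these calls.

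The 2 luteal regression dogs were far apart in NFIL3 and ELL2. Dog 1 was higher than dog 2 in each of the 4 genes, by 3.61 times in NFIL3 and 3.27 times in ELL2. The SD between these dogs on the log2 scale was 1.30 for NFIL3 and 1.20 for ELL2, larger than for 98.8% and 98.5% of the genes in the fit. Without dog 1, NFIL3 in luteal regression over luteolysis was -1.84 and ELL2 turned to -0.80. Without dog 2 they were 0.0065 and 0.90, and over mid-gestation -0.63 and 0.98.

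The spread within groups differed from gene to gene. At mid-gestation the SD of log2 CPM was 1.03 for FZD5, larger than for 93.9% of genes, 0.77 for NFIL3 (86.1%) and 0.72 for ELL2 (84.1%), while CSRNP3 at 0.31 was larger than 43.2%. After antigestagen it was 0.75 for NFIL3, 0.65 for FZD5, 0.62 for CSRNP3 and 0.35 for ELL2, against a median of 0.41 over all genes. ELL2 was thus the gene with the most even level among treated dogs, with 1.90 times between the highest and the lowest, and NFIL3 the least even, with 4.20 times.

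Mid-gestation dog 5 was the highest of its group in NFIL3, ELL2 and FZD5. Its log2 CPM exceeded the mean of the other 4 mid-gestation dogs by 0.86 in NFIL3, 0.34 in CSRNP3, 1.41 in ELL2 and 2.16 in FZD5, more than in 94.9%, 77.7%, 98.8% and 99.8% of all genes. It was the highest of its group in 19.6% of all genes, and its library was the deepest of the series. The endothelial markers (3 of 7 paired) summed to 534 CPM in this dog, close to the 531 CPM of dog 1, and of the 3 only VWF was highest in dog 5. The T and NK cell markers (4 of 14 paired) summed to 10.4 CPM, the lowest sum of the group. The part of depth or of these cells in its values was not tested.

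Antigestagen dog 1 was the lowest of its group in NFIL3, ELL2 and FZD5 and had the shallowest library of the series. Without it the log2 ratios of antigestagen over mid-gestation were 1.66 for NFIL3, 1.32 for CSRNP3, 1.40 for ELL2 and 2.84 for FZD5, each larger than with it.

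**Figure D3:**
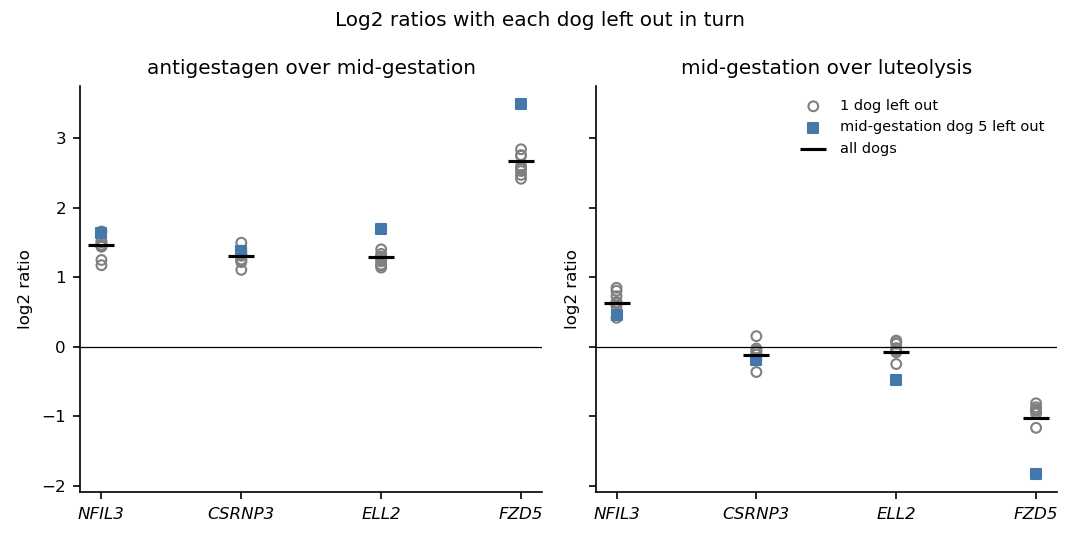
Log2 ratios of the 4 genes for antigestagen over mid-gestation (left) and mid-gestation over luteolysis (right), with all dogs and with each dog of the 2 groups left out in turn. Antigestagen over mid-gestation, a contrast that chose the genes as higher, ranges from 1.11 for CSRNP3 to 3.49 for FZD5, and its sign is not read as a result. Mid-gestation over luteolysis stays below 0 for FZD5, from -1.83 to -0.81, and lies on both sides of 0 for CSRNP3 and ELL2.

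Beyond the group differences, dogs high in 1 of the genes could be high in another. This was tested on the deviation of each dog's log2 CPM from its group mean, permuting dogs within groups in all 172800 ways (two-sided). Over the 15 dogs NFIL3 and ELL2 rose and fell together (r = 0.798, permutation p = 0.0083, adjusted over 6 pairs 0.0264, Spearman's rho = 0.768, permutation p = 0.0111, adjusted 0.0546). ELL2 and FZD5 did so too (r = 0.731, permutation p = 0.00881, adjusted 0.0264, rho = 0.657, permutation p = 0.0279, adjusted 0.0559). By rank neither pair passed the adjusted threshold of 0.05. How common such r is among other pairs of genes was not tested. Without the 2 dogs farthest from the median of the first gene, r was 0.764 for NFIL3 and ELL2, and 0.581 for ELL2 and FZD5.

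Each of the 2 relations depended in part on single dogs. For ELL2 and FZD5, r was 0.514 without mid-gestation dog 5 (permutation, adjusted p = 0.201). This pair also missed the threshold, with adjusted p-values from 0.0511 to 0.0806, without antigestagen dog 1 or 2, mid-gestation dog 2 or 4, or either luteal regression dog. For NFIL3 and ELL2, r stayed between 0.72 and 0.851 with any dog left out. That pair missed the threshold, with adjusted p-values in the same span, without antigestagen dog 1, luteolysis dog 1, mid-gestation dog 4 or either luteal regression dog. Within the mid-gestation dogs alone NFIL3 and ELL2 gave r = 0.763, and within the antigestagen dogs 0.671, while ELL2 and FZD5 gave 0.864 and 0.752. Each of these rests on 5 dogs and is given as a value only.

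The remaining 4 pairs did not pass. CSRNP3 and FZD5 had r = 0.493 (permutation p = 0.0514, adjusted 0.103, rho = 0.632, p = 0.0182, adjusted 0.0546). For CSRNP3 and ELL2 r was 0.395 (permutation p = 0.0896, adjusted 0.134, rho = 0.536, p = 0.0402, adjusted 0.0604). NFIL3 and FZD5 had r = 0.388 (permutation p = 0.208, adjusted 0.25, rho = 0.40, p = 0.206). NFIL3 and CSRNP3 were the least alike, with r = 0.219 (permutation p = 0.463, rho = 0.371, p = 0.194).

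**Figure D4:**
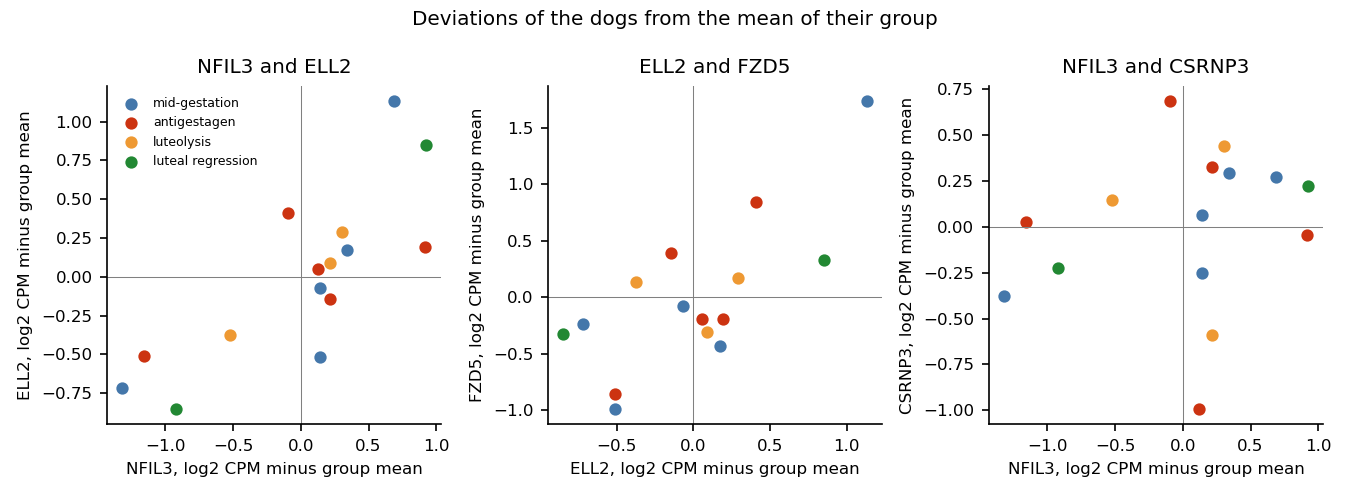
Each dog's log2 CPM minus its group mean for NFIL3 and ELL2 (r = 0.798), ELL2 and FZD5 (r = 0.731) and NFIL3 and CSRNP3 (r = 0.219). Points are the 15 dogs, coloured by group. In the middle panel the point at the upper right is mid-gestation dog 5.

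The genes most like each of the 4 over the 15 dogs were ranked by Pearson's r of log2 CPM among the other 14921 genes, as a description. Since the dogs differ by group and the 4 genes were chosen for being high after antigestagen, genes with that pattern rank high. NFIL3 was most like ENSCAFG00000013899 (r = 0.888), MED15, a Mediator subunit (0.868), CA8 (0.865), KIF5C, a kinesin heavy chain (0.861), and C10orf10 (0.854). Over group-mean deviations these had r of 0.816, 0.683, 0.67, 0.787 and 0.656 with NFIL3.

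CSRNP3 was most like HNF4A, a nuclear receptor of liver and gut that was at 0.391 to 2.52 CPM in group means here (r = 0.851), TMEM65 (0.838), FAM110B (0.805) and TIPARP, a target of the aryl hydrocarbon receptor (0.802). ELL2 was most like SLC11A2, an iron transporter (0.877), FZD5 (0.862), PRLR, the receptor of the luteotrophic hormone prolactin (0.859), NCAD (0.835) and ENSCAFG00000031411 (0.819). FZD5 was most like ENSCAFG00000031411 (0.944), the deubiquitinases USP13 (0.881) and BAP1 (0.873), GATS (0.87) and ELL2 (0.862). ELL2 and FZD5 were thus each among the 5 genes most like the other. Over group-mean deviations ELL2 had r of 0.712 with SLC11A2, 0.731 with FZD5, 0.806 with PRLR, 0.653 with NCAD and 0.586 with ENSCAFG00000031411. FZD5 had 0.758 with ENSCAFG00000031411, 0.774 with USP13, 0.525 with BAP1 and 0.65 with GATS. By this measure PRLR was closer to ELL2 than NFIL3 was (0.798), and USP13 and ENSCAFG00000031411 were closer to FZD5 than ELL2 was.

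ENSCAFG00000031411, a gene without a name in the sources used here, was counted at 1.31 to 3.13 CPM in the antigestagen dogs and at 0.0522 to 0.734 CPM in the 10 others. It is 1 of the 7 genes that set each antigestagen dog above the rest. Its mean was 1.95 CPM after antigestagen and 0.255 CPM at mid-gestation. FZD5 was also highest and lowest in these groups, which is no further likeness, since the gene was named for its r with FZD5.

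The genes around the 4 were looked up in 8 lists of 125 genes, of which 31 had an identifier. Names were at hand only for genes that the study had called in at least 1 contrast on these same dogs, so that the lists' counts are not independent evidence. For the same reason the share over all genes, given beside each count, is not a like measure, and no enrichment is read from it. CSRNP1, CSRNP2, ELL, ELL3 and DBP could not be paired. In antigestagen over mid-gestation none of the 29 list genes tested was called by edgeR, where 0% of all genes were, and their median log2 ratio was -0.08 against 0.02 over all genes.

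Of the closest relatives of NFIL3, TEF and HLF could be paired, and edgeR called neither after antigestagen. It called no gene at all over mid-gestation or over luteal regression, and 4.75% of genes over luteolysis. TEF and HLF, the activators whose sites NFIL3 binds, had log2 ratios of -0.11 (SE 0.24, adjusted p = 0.96 by edgeR) and -0.25 (SE 0.27, adjusted p = 0.892) over mid-gestation. Over luteolysis they were 0.32 (SE 0.28, adjusted p = 0.578) and -0.01 (SE 0.31, adjusted p = 0.995). Over luteal regression they were -0.93 (SE 0.30, adjusted p = 0.198 by edgeR) and -1.10 (SE 0.34, adjusted p = 0.184). DESeq2 called both there, among 928 of 14578 genes. The levels of TEF were 9.69 to 14.7 CPM after antigestagen and 8.53 to 21.1 CPM at mid-gestation, and those of HLF 20.1 to 47.5 and 24.4 to 51.3 CPM.

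Among the other Frizzled receptors, FZD2, FZD6 and FZD8 could be paired. Over mid-gestation FZD2 had a log2 ratio of -0.43 (SE 0.31, adjusted p = 0.828 by edgeR), FZD6 of 0.22 (SE 0.16, adjusted p = 0.837) and FZD8 of 0.57 (SE 0.27, adjusted p = 0.726) after antigestagen. Over luteolysis FZD2 had 0.48 (SE 0.37, adjusted p = 0.525), FZD6 -0.34 (SE 0.19, adjusted p = 0.351) and FZD8 1.02 (SE 0.32, adjusted p = 0.113 by edgeR). DESeq2 called FZD8 over luteolysis, with 10.2% of genes called. FZD8 was 7.45 to 19.3 CPM in the antigestagen dogs, 5.70 to 12.2 CPM at mid-gestation, 5.03 to 7.59 CPM at luteolysis and 4.57 to 7.48 CPM in luteal regression. Whether FZD5 differed from these receptors in its response was not tested.

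LRP5, the co-receptor through which Frizzled receptors signal, differed from FZD5 in its order of groups. It averaged 153 ± 31.6 CPM (SD, n = 5) after antigestagen, 142 ± 21.8 (n = 5) at mid-gestation, 117 ± 15.2 (n = 2) in luteal regression and 56.1 ± 24.7 (n = 3) at luteolysis. It was called higher than at luteolysis in antigestagen (log2 ratio 1.45, SE 0.26, adjusted p = 0.0181 by edgeR), at mid-gestation (1.34, SE 0.26, adjusted p = 0.0138) and in luteal regression (1.06, SE 0.30, adjusted p = 0.0873).

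**Figure D5:**
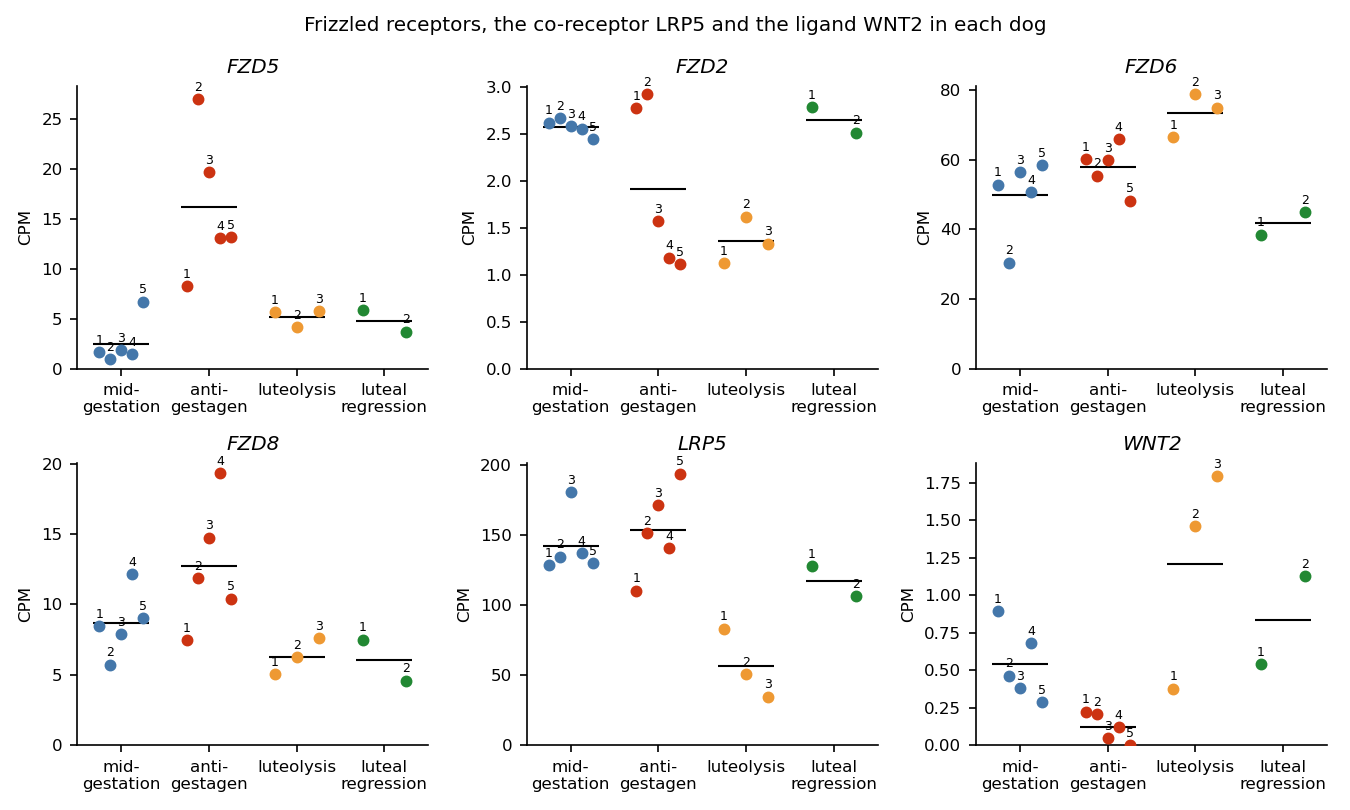
CPM of FZD5, the other paired Frizzled receptors FZD2, FZD6 and FZD8, the co-receptor LRP5 and the ligand WNT2 in each dog, with group means as lines. FZD5 is highest and WNT2 lowest in the 5 antigestagen dogs, and LRP5 is lowest in the 3 luteolysis dogs.

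WNT2, a ligand of Frizzled receptors, was counted with few reads. It was between 0 and 0.222 CPM in the antigestagen dogs (0 to 4 reads) and between 0.288 and 1.8 CPM in the 10 others (5 to 37 reads), and it was 1 of the 13 genes with each antigestagen dog below all other dogs. It was called lower in antigestagen over luteolysis (log2 ratio -3.32, SE 0.70, adjusted p = 0.0306 by edgeR) and had -2.14 over mid-gestation (SE 0.67, adjusted p = 0.523). In neither contrast did the antigestagen dogs reach the filter's mean count of 10, so that WNT2 was tested through the other group and could be called only as lower after antigestagen.

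In antigestagen over luteolysis, 2 of 30 list genes were called higher and 3 lower, where 4.75% of all genes were called, a share not comparable with that of genes named through the study's calls. LRP5 was called higher, as was MEPCE, which caps the 7SK RNA that holds back transcription elongation (0.69, SE 0.18, adjusted p = 0.0655 by edgeR). MEPCE averaged 54.9 CPM after antigestagen, 55.5 at mid-gestation, 56.2 in luteal regression and 34.1 at luteolysis. The 3 called lower were WNT2 and the WNT ligands WNT1 and WNT7A (adjusted p = 0.0625 and 0.0851 by edgeR, WNT7A not called by DESeq2). All 3 passed the filter only through the luteolysis dogs, so that no other direction was open to them and their number is not read as a result about the list. WNT1 was at 0 to 0.308 CPM after antigestagen and 0.0751 to 4.11 CPM at luteolysis, and WNT7A at 0 to 0.0592 and 0.0751 to 1.10 CPM. The count of 5 depended on the fit and on single dogs. It was 0 without luteolysis dog 3 or with the dogs of these 2 groups alone. It was 3 without luteolysis dog 2 or antigestagen dog 3, 4 or 5, 9 without luteolysis dog 1, and 11 with DESeq2. Calls over all genes moved as well. They were 6 of 14507 without luteolysis dog 3, 3 of 14473 with these 2 groups alone and 2169 of 14620 without luteolysis dog 1.

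In mid-gestation over luteolysis, where none of the 4 genes was called, 6 of 31 list genes were called higher and 5 lower. Of all genes 8.16% were called, again a share not comparable with that of genes named through the study's calls. The clock repressor PER2 was higher at mid-gestation (log2 ratio 1.27, SE 0.35, adjusted p = 0.0551 by edgeR), as were MEPCE (0.70), LRP5, the secreted WNT inhibitor SFRP1 (0.86), the WNT-responsive transcription factor TCF7L2 (0.73) and the steroid-responsive repressor ZBTB16 (2.22). EAF1, a partner of the ELL proteins, was lower (-1.53, SE 0.39, adjusted p = 0.0396), and so were the WNT ligands WNT4 (-1.36) and WNT9B (-3.09) and the inhibitory receptor KREMEN1 (-1.19). WNT1 was called lower as well and had no read in any mid-gestation dog. WNT1 and WNT9B passed the filter only through the luteolysis dogs and could be called only as lower at mid-gestation. The count of 11 was 2 without luteolysis dog 3, 6 without luteolysis dog 2 or mid-gestation dog 3 or 4, and 7 without mid-gestation dog 5. Calls over all genes were 112 of 14693 without luteolysis dog 3, 474 of 14538 without luteolysis dog 2 and 1018 of 14641 without mid-gestation dog 5.

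EAF1, which binds ELL proteins, was also set beside ELL2 dog by dog. Its level was 4.24 to 16.3 CPM after antigestagen, 4.52 to 14.0 CPM at mid-gestation, 17.5 to 35.5 CPM at luteolysis and 12.4 to 13.4 CPM in luteal regression. The 3 luteolysis dogs were thus above each other dog in EAF1, while in ELL2 they were below each antigestagen dog.

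In luteal regression over luteolysis, 10 of 31 list genes were called higher and 1 lower, where 5.11% of all genes were called. The list genes were named through the study's calls on these dogs, so that their share is not comparable and is not read as enrichment. Of the clock genes 5 of 6 were called higher, with PER2 at 2.41 (SE 0.41, adjusted p = 0.0367 by edgeR), NR1D2 at 1.11, TEF at 1.26 and PER3 at 1.69. The hour of surgery is not given in the sources used here. For clock genes, in this contrast and the others, time of day and group therefore cannot be told apart. ZBTB16 (2.84), ROR2, a receptor for WNT ligands (1.51), LRP5, LGR4, a receptor that enhances WNT signals (0.85), and MEPCE (0.72) were called higher. FZD6 was called lower, by 0.81 on the log2 scale. NFIL3, which binds the same DNA elements as TEF, was not called in this contrast (-0.64, SE 0.60, and 0.0065 without luteal regression dog 2). The count was 0 without luteolysis dog 3, where edgeR called 5 of 14780 genes in all. It was 18 with DESeq2, which called 1554 of 14768 genes. Without either luteal regression dog that group holds 1 dog, and no count is given. In luteal regression over mid-gestation edgeR called none of 28 list genes and no gene at all, while 2073 genes were below an unadjusted p-value of 0.05. DESeq2 called 332 genes there, among them PER3 (edgeR log2 ratio 1.44) and KREMEN1 (1.31).

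The markers of other cell types that could be paired are given by the range of their summed levels. The neutrophil markers S100A9 and CSF3R (2 of 5 paired) summed to 15.3 to 35.1 CPM in the antigestagen dogs, 4.41 to 30.0 at mid-gestation, 2.85 to 67.3 at luteolysis and 0.718 to 4.40 in luteal regression. The macrophage markers AIF1, C1QB and C1QC (3 of 9) summed to 227 to 809 CPM after antigestagen and 264 to 663 at mid-gestation, against 143 to 322 at luteolysis and 107 to 147 in luteal regression. The markers CD3E, CD2, GZMA and GZMB of T and NK cells, in which NFIL3 has a known role, summed to 8.34 to 17.9 CPM after antigestagen, 10.4 to 25 at mid-gestation, 6.38 to 209 at luteolysis and 6.93 to 10.4 in luteal regression. The high sums at luteolysis came from GZMB, at 206 and 110 CPM in dogs 2 and 3 and 0.676 in dog 1, while CD2 was 1.94 to 4.20 CPM at luteolysis and 4.41 to 11.3 after antigestagen, and GZMA 0.174 to 0.826 and 1.22 to 1.54.

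DERL3, the 1 of 9 markers of B and plasma cells that could be paired, was 5.22 to 96.2 CPM after antigestagen, 5.61 to 25.8 at mid-gestation, 10.7 to 12 at luteolysis and 4.98 to 24.3 in luteal regression. The endothelial markers PECAM1, VWF and TEK summed to 377 to 775 CPM after antigestagen and 215 to 534 at mid-gestation, 365 to 798 at luteolysis and 231 to 243 in luteal regression. The fibroblast markers COL1A1, COL1A2, COL3A1 and PDGFRA (4 of 6) summed to 3358 to 9207 CPM after antigestagen, 3682 to 14901 at mid-gestation, 1902 to 4577 at luteolysis and 5361 to 7034 in luteal regression. The part of these cells in the levels of the 4 genes was not tested.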

How the data were processed

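Poly-A selected RNA of the CL of 15 dogs was sequenced from a single end. Per the labels' processing notes and the study's methods, the authors used bcl2fastq 1.8.4, STAR 2.5.1b with the build CanFam3.1, and featureCounts, and deposited raw counts per Ensembl gene. Of 23630 genes, 4296 had no read, and values of at least 10000 (3148) were rounded to 4 significant digits in the deposited counts, which were used as they stand. The strand setting of the counting is not given in the sources used here and the kit does not mark strand, so that reads of an antisense or overlapping gene cannot be told apart. No genome annotation was used, and neither coordinates nor sequences are given.

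Groups follow the condition label. Mid-gestation dog 1 carries the antigestagen number in its description field, against its title and condition, which were followed. The collection site and the hour of surgery of each dog are not given in the sources used here. The study counts 1 more luteal regression dog, which was not analysed here.

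Software was edgeR 4.0.16 and DESeq2 1.42.0 under R 4.3.3, and SciPy 1.17.1 under Python 3.11.15. A single edgeR model with TMM scaling held all 15 dogs and the 14922 genes whose mean count reached 10 in 1 group. A contrast was tested two-sided (quasi-likelihood F-test) on the genes that reached this mean in either group compared, with Benjamini-Hochberg adjustment over all of them. Calls needed p below 0.01 and an adjusted p below 0.1. SE is the absolute log2 ratio divided by the square root of F. Log2 CPM used a prior count of 2. At these depths (8558743 to 26284315 counts per dog) the spread between dogs, not counting error, limits precision for NFIL3, CSRNP3 and ELL2. The fit and the permutation test were tested on simulated data.

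Members and lists were chosen with earlier results of these data known. Named genes are the 4 members, their family members, per list and contrast up to 4 called genes of smallest p, and per member the 5 genes of highest r, 1 of which is not reported here. The genes that set all antigestagen dogs apart were named after their values were seen. Names come from the study's additional files (2967 of 14922 genes in the fit). Of 67 markers in 8 lists, 19 were paired, and none of 5 for pericytes and smooth muscle. Alternatives were DESeq2's size factors, DESeq2's Wald test, no filter, a mean count of at least 50, only the dogs of the 2 groups, a prior count of 0.5 for the correlations, each dog left out, and 2 chosen after seeing the data, which combine DESeq2 or its size factors with leaving out mid-gestation dog 5.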

Additional observations from a re-analysis of the deposited data

Results flagged for a closer look

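FZD5 in mid-gestation dog 5 was 6.69 CPM, far from the other 4 dogs of its group, whose mean was 1.45 CPM and whose highest value was 1.83 CPM. By Dixon's test on CPM its gap to the nearest dog was 0.843 of the range of the group, above the 95% critical value of 0.71 for 5 dogs. The flag depends on this scale. In log2 CPM dog 5 was at 2.76, the next dog at 0.955 and the lowest at 0.048, and the test was not run there. Of 8 sets of 5 dogs tested (the 4 genes at mid-gestation and after antigestagen) this was the only one past its critical value, and chance alone brings about 1 in 20 groups there. ELL2 in the same dog came next, at 0.672 of the range.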

How the results depend on the processing

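No paired analysis was possible because the labels give no replicate numbers that dogs of different groups share. The median log2 ratio of the 4 genes kept its sign in the 3 antigestagen contrasts under each setting run. Over mid-gestation and over luteolysis the choice of the genes favoured this sign. Over luteal regression it did so through the same antigestagen dogs, so that nothing is read from the sign in any of the 3. In mid-gestation over luteolysis the count of the 4 genes called was 0 to 1 with a dog left out. It was 1 without mid-gestation dog 5 also by DESeq2 and with DESeq2's size factors (both chosen after seeing the data). These 2 fits called 1754 and 1031 of 14641 genes and gave FZD5 at -1.82 and -1.81. In the same contrast CSRNP3 ranged from -0.36 to 0.15 with a dog left out and was above 0 without luteolysis dog 3. ELL2 ranged from -0.48 to 0.0904 and was above 0 without that dog, mid-gestation dog 1 or mid-gestation dog 2. Luteal regression over mid-gestation had a median of 0.23 over the 4 genes and -0.44 to 0.64 with a dog left out. With dogs left out, FZD5 went from 2.68 to 3.49 in antigestagen over mid-gestation and from 0.92 to 1.72 in luteal regression over mid-gestation, both without mid-gestation dog 5. Without luteal regression dog 1, where the lone dog is assumed to vary like the other groups, antigestagen over luteal regression became 3.94 for NFIL3 and 2.02 for ELL2, and luteal regression over mid-gestation -2.48 and -0.73.

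With a dog left out, r ranged from 0.72 to 0.851 for NFIL3 and ELL2, from 0.514 to 0.781 for ELL2 and FZD5, and from 0.384 to 0.599 for CSRNP3 and FZD5, which passed without antigestagen dog 4 (permutation, adjusted p = 0.025). NFIL3 and ELL2 no longer passed in 5 of 15 cases and ELL2 and FZD5 in 7 of 15.

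List genes called in antigestagen over luteolysis were 5, against 11 by DESeq2, 0 with the dogs of the 2 groups alone and 0 to 9 with a dog left out. In mid-gestation over luteolysis they were 11, against 17, 6 and 2 to 11. In luteal regression over luteolysis they were 11, against 18, 0 and 0 to 14, and 6 without a filter on low counts. The number of all genes called moved with these settings as well. The causes were not tested.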
